A study of Mus musculus with 105 samples.

Results

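The 9 genes described here, Nnt, Papss1, Cyb561, Camk1d, Trim12a, Trim30d, Tmc5, Gdpd3 and Fut10, were picked by symbol for large differences between IKO and WT mouse liver, out of 12966 measured genes. The choice rested on measured values and stated no threshold, so each IKO difference below is a description with no test. The question asked of them was whether their levels were all-or-none, present in 1 genotype and absent in the other, as a strain variant would give. Every mouse in the study had received DEN (diethylnitrosamine, a liver carcinogen), WT mice included. IKO, which the labels call Ikk KO, SKO (Shp2 KO) and their WT made up sequencing group 1, with 4 libraries for each genotype at 1, 3, 5 and 8 months. BKO (beta catenin KO), MKO (cMet KO) and a second WT made up sequencing group 2, with 3 libraries each at the same ages. At 8 months non-tumour liver and tumour were sampled separately, and the earlier samples were counted here as non-tumour liver. The series title places the gene losses in hepatocytes. Age in months is given by the labels, but neither the IKK subunit, the driver of deletion, the mouse strain nor the sex is.

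The 9 genes do varied work. Nnt encodes the proton-driven transhydrogenase of the mitochondrial inner membrane, which makes NADPH, and a substrain of a widely used black mouse line carries a deletion in it. Papss1 makes PAPS, the sulfate donor of every sulfotransferase, and Fut10 belongs to the fucosyltransferases that add fucose to sugar chains. Gdpd3 is a lysophospholipase D, Cyb561 is a transmembrane electron carrier that uses ascorbate, Camk1d is a calcium and calmodulin-dependent kinase, and Tmc5 belongs to the transmembrane channel-like family. Trim12a and Trim30d belong to the TRIM cluster on mouse chromosome 7, whose relatives Trim5 in primates and Trim30 in mouse are known from antiviral defence and innate immunity.

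Depth ranged between 4676444 and 10863046 reads per library in sequencing group 1 and between 6650086 and 20231121 in sequencing group 2, as recovered from the deposited values. The 8 hepatocyte markers checked summed to at least 250700 normalised reads in every non-tumour library, so the liver label held. Ikbkb, 1 of the IKK kinase genes, had 185.2 to 382.7 normalised reads in the 16 IKO non-tumour libraries, median 274.8, against 274.7 to 478.4, median 338.3, in WT. Those ranges overlapped. As the labels name neither the subunit nor the deleted part, this level does not check the IKO label. A replicate is 1 library that the labels number as a biological replicate. Nothing in them says that each came from a separate mouse, so the p-values below measure the spread between these libraries.

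The name under which these genes were grouped, constant over the stages and away from Ikbkb, fitted only some of them. Fut10 lies on chromosome 8 at 31187331 to 31261738 (GRCm38, GENCODE M21), 8.48 Mb from Ikbkb, which lies at 22659212 to 22706589. The other 8 lie on other chromosomes. Trim12a (104299894 to 104315466), Trim30d (104470014 to 104507849), Tmc5 (118597297 to 118675086) and Gdpd3 (126766334 to 126775649) share chromosome 7. Gaps of 0.15, 14.09 and 8.09 Mb separate these neighbours in that order. Nnt lies on chromosome 13 (119335448 to 119408997), Papss1 on chromosome 3 (131564768 to 131643671), Cyb561 on chromosome 11 (105933702 to 105953336) and Camk1d on chromosome 2 (5293457 to 5714515). All 9 are protein-coding. A predicted gene on the opposite strand overlaps 6 of them (all but Nnt, Tmc5 and Trim30d), and Trim30d overlaps one on its own strand. Whether counting used strand is not given in the sources used here, so reads of such a pair cannot be told apart.

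Windows of 250 bases before to 50 after the start of the gene were found in RefSeq (GRCm38.p6) for 5 of the 9, and 3 of them, all on chromosome 7, are shown because their genes went up and down together among the IKO libraries. Each reads 5′ to 3′ on the gene's own strand, and capitals mark a match to the interferon-stimulated response element core, which is GAAA, 2 bases of any kind and GAAA again, on either strand.
Trim12a, chr7:104315446-104315745, minus strand: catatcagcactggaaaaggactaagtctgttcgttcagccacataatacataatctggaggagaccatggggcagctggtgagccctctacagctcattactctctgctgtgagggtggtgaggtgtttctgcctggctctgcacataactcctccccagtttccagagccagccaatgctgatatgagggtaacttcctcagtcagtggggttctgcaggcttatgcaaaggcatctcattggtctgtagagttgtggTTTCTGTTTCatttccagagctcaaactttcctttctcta
Trim30d, chr7:104507800-104508099, minus strand: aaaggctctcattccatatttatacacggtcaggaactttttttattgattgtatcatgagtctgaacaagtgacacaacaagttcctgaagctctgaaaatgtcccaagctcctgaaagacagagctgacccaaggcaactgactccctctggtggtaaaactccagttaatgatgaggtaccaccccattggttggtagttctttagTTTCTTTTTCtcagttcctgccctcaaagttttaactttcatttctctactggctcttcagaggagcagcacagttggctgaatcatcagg
Gdpd3, chr7:126766164-126766463, plus strand: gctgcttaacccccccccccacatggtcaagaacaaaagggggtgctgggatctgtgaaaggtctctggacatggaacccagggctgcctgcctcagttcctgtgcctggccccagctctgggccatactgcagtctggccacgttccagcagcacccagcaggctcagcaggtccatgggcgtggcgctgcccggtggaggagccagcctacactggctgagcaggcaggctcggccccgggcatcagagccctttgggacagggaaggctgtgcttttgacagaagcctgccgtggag

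The Trim12a window held 1 such match, starting at base 11 after the start, and the Trim30d window held 1, starting 41 bases before it. The Gdpd3 window, and those of Papss1 and Camk1d, held none. Of 32851 RefSeq windows of this length, 3.44% held the motif. The NF-kappa-B consensus was found in 0 of the windows of the 5 genes, on either strand, and in 4.51% of all windows. These are letter matches and no evidence of binding.

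Over the 4 non-tumour stages, 4 of the 9 genes were higher in IKO than in WT and 5 were lower, and 3 had no overlap between the 16 IKO and the 16 WT libraries. Those 3 were Papss1, Cyb561 and Fut10. Across all 12966 genes 8, or 0.0617%, had no overlap, but the 9 were picked on this contrast, so nothing is read from the count. By limma over all genes 1172 genes, or 9.04%, passed an adjusted p of 0.05 in that contrast. Values are normalised reads, the deposited log2 values turned back to reads and scaled for library size, and differences are log2 on the deposited scale with their standard error. That scale flattens low values, so it understates the change of genes with few reads.

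**Figure D1:**
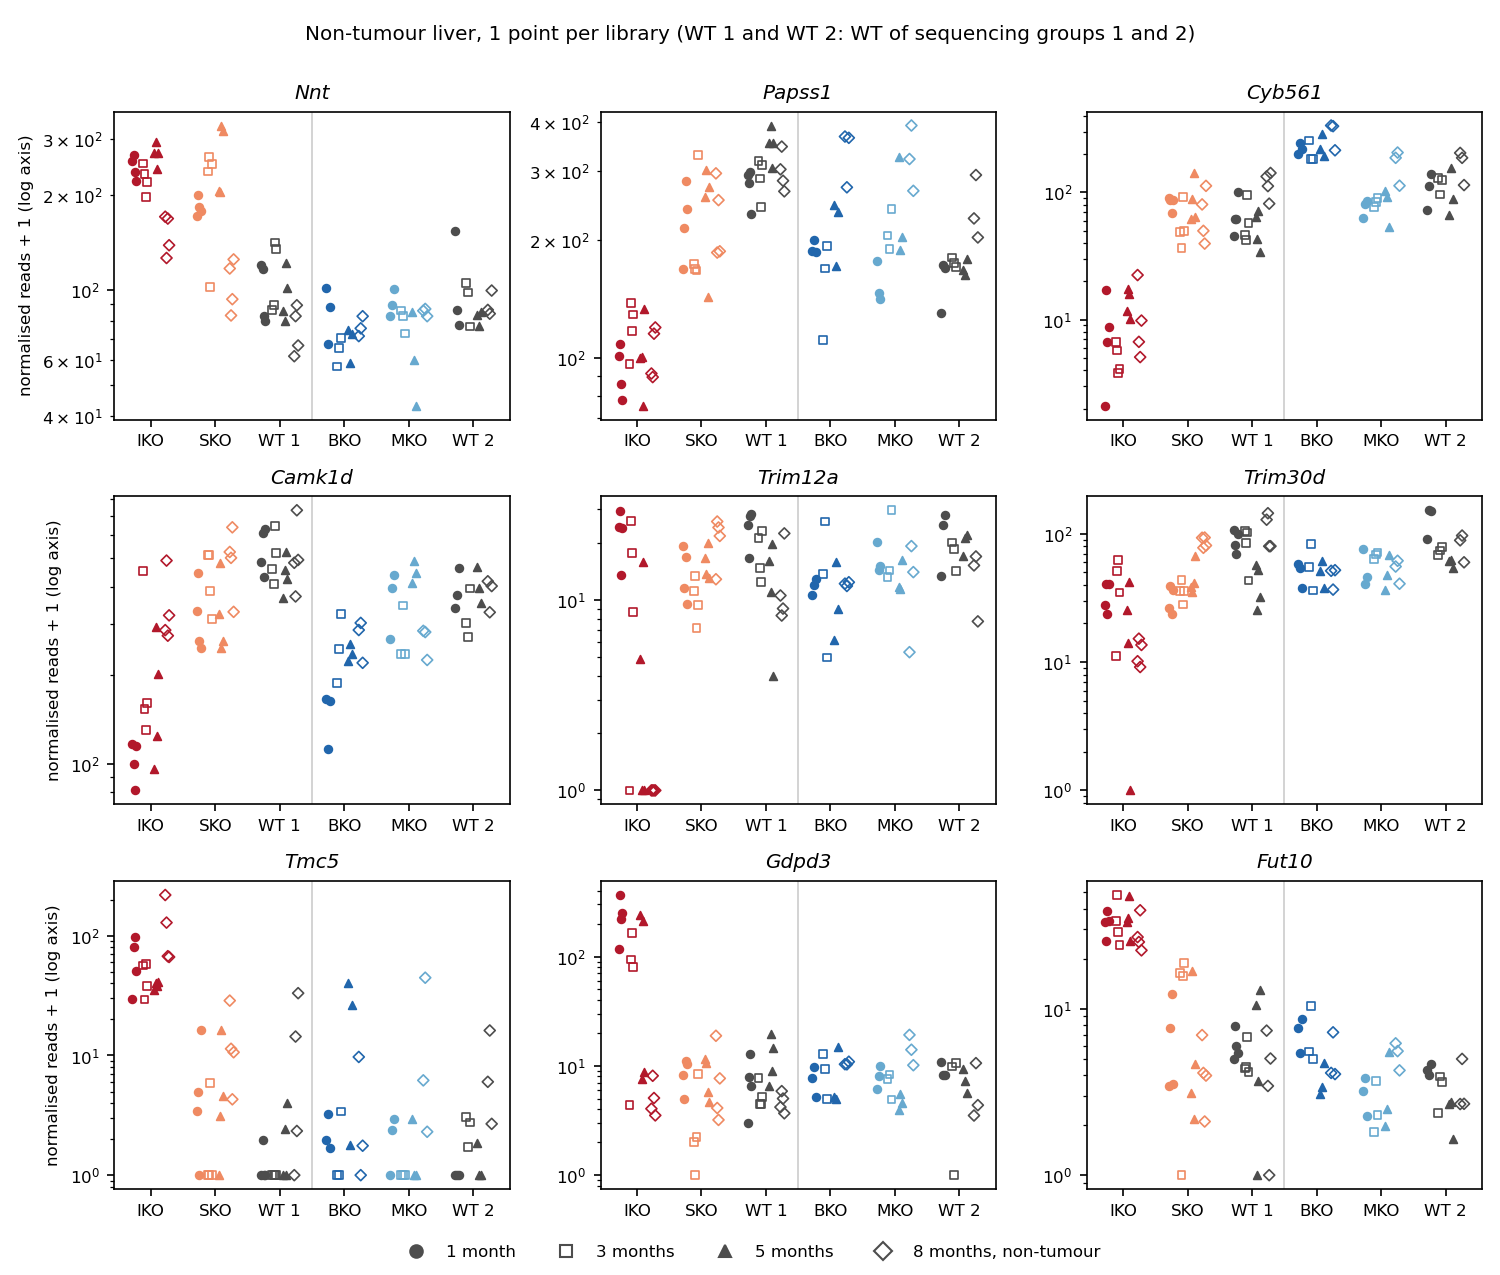
Normalised reads plus 1 on a log axis for each of the 9 genes, 1 point per non-tumour library, by genotype and with a symbol for the stage; IKO, SKO and WT 1 are sequencing group 1, and BKO, MKO and WT 2 sequencing group 2. IKO and WT 1 do not overlap for Papss1, Cyb561 and Fut10, and Trim12a and Gdpd3 spread to both sides within IKO.

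Of the genes that make cofactors and sugars, Nnt had 125.2 to 293.6 normalised reads in the 16 IKO libraries, median 233.5, against 60.7 to 140.2, median 87.0, in WT. The lowest IKO libraries were those of 8 months, and 14 of 16 stood above the whole WT range. Its mean was 221.7 ± 49.9 in IKO and 95.3 ± 23.7 in WT (SD), and the difference was 1.026 ± 0.11 (log2, SE, n = 16 each). WT livers kept 37.3% of the IKO median, so Nnt reads were present in both. As each gene has a single count, it cannot be seen from which part of the gene the reads came. Whether a part of Nnt was deleted was not tested. Papss1 had 74.4 to 137.0 normalised reads in IKO libraries, mean 103.8, against 232.3 to 390.1, mean 303.5, in WT. Every IKO library stood below every WT library of sequencing group 1, with a difference of -1.35 ± 0.10, and IKO livers kept 33.2% of that WT median. The 12 WT non-tumour libraries of sequencing group 2 had 129.3 to 292.4 normalised Papss1 reads, median 172.9. Their range thus reached into that of IKO. Fut10 had 21.4 to 47.3 normalised reads in IKO libraries, median 32.2, against 0 to 12.0, median 3.99, in WT, of which 2 of 16 libraries held none. Every IKO library stood above every WT library, by 1.24 ± 0.12.

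Cyb561, the electron carrier, had 1.11 to 21.4 normalised reads in IKO libraries, median 6.70, against 32.9 to 140.8, median 61.9, in WT. No IKO library was at 0 and none reached the WT range. The IKO median was 10.8% of the WT median, and the difference was -1.70 ± 0.13. Camk1d, the kinase, had 80.0 to 490.8 normalised reads in IKO libraries, median 156.6, against 364.4 to 728.9, median 484.3, in WT. The ranges overlapped through 2 IKO libraries, replicate 1 at 3 months and replicate 2 at 8 months, and the difference was -1.31 ± 0.13. Tmc5 came closest to all-or-none. It had 28.4 to 218.4 normalised reads in IKO libraries, median 52.8, while WT libraries had 0 to 32.2 with a median of 0, and 10 of 16 WT libraries held no read. The difference was 2.23 ± 0.20, and the overlap came from WT replicate 4 at 8 months alone.

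The TRIM genes and Gdpd3 did not have 1 level in IKO. Gdpd3, the lysophospholipase D, had 2.52 to 364.4 normalised reads in the 16 IKO libraries, median 85.8, against 1.98 to 18.6, median 5.18, in WT. In IKO, 9 of 16 libraries stood above the WT range and the other 7 lay inside it, so the difference of 1.60 ± 0.21 is a mean over both kinds of library. Trim12a had 0 to 28.4 normalised reads in IKO libraries, median 5.81, against 2.99 to 27.4, median 15.4, in WT, a difference of -0.59 ± 0.12. Here 7 of 16 IKO libraries held no read and the other 9 held 3.91 to 28.4. Trim30d had 0 to 61.6 normalised reads in IKO libraries, median 23.6, against 24.4 to 143.7, median 79.7, in WT, a difference of -1.17 ± 0.13. Of the distinct 50-base words in the last 500 transcript bases, 16.86% for Trim30d, mostly with its neighbour Trim30a, and 6.13% for Trim12a occur in other genes too. How such reads were assigned is not given in the sources used here, so the levels of this pair are less certain than those of the other 7 genes, for which the share was 2.75% (Papss1) or 0.

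Stage by stage on the deposited scale, Fut10, Papss1, Nnt and Tmc5 kept the same direction and a similar size, and the others did not. The IKO minus WT difference of Fut10 was 1.15, 1.26, 1.28 and 1.28 at 1, 3, 5 and 8 months, a spread of 0.137 between the lowest and the highest. For Papss1 it was -1.35, -1.12, -1.58 and -1.34, for Nnt 1.13, 0.88, 1.28 and 0.82, and for Tmc5 2.49, 2.28, 1.87 and 2.29. These 4 spreads, none over 0.627, set the genes apart from the remaining 5, each with a spread over 1. For Tmc5 the similar size rests on WT levels near 0, which the scale flattens. Its mean was 63.79 normalised reads in IKO against 0.25 in WT at 1 month, and 119.65 against 11.73 at 8 months. In reads the fold difference of Tmc5 was therefore not constant over the stages. Fut10 also had few reads in WT, where the scale flattens, so its spread of 0.137 understates how its fold difference varied. Its means at the 4 stages were 31.82, 32.81, 34.4 and 27.41 normalised reads in IKO, against 5.05, 3.94, 6.06 and 3.21 in WT. Cyb561 differed by -1.71, -1.79, -1.11 and -2.20, lower at every stage but by unequal amounts. Camk1d differed by -2.13 at 1 month and by -0.56 at 8 months, with -1.24 and -1.29 between. Gdpd3 differed by 3.21 at 1 month, 1.81 and 1.35 at 3 and 5 months, and 0.04 at 8 months, where the IKO libraries, at 2.52 to 7.11 normalised reads, overlapped the WT libraries at 2.68 to 4.87. Trim12a ran the other way, with -0.06, -0.41, -0.67 and -1.23, and Trim30d differed by -1.02, -0.82, -0.85 and -1.98. The standard errors of these single-stage differences, with n = 4 each, lay between 0.19 for Papss1 and 0.43 for Gdpd3. The change of a difference between stages was not tested.

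**Figure D2:**
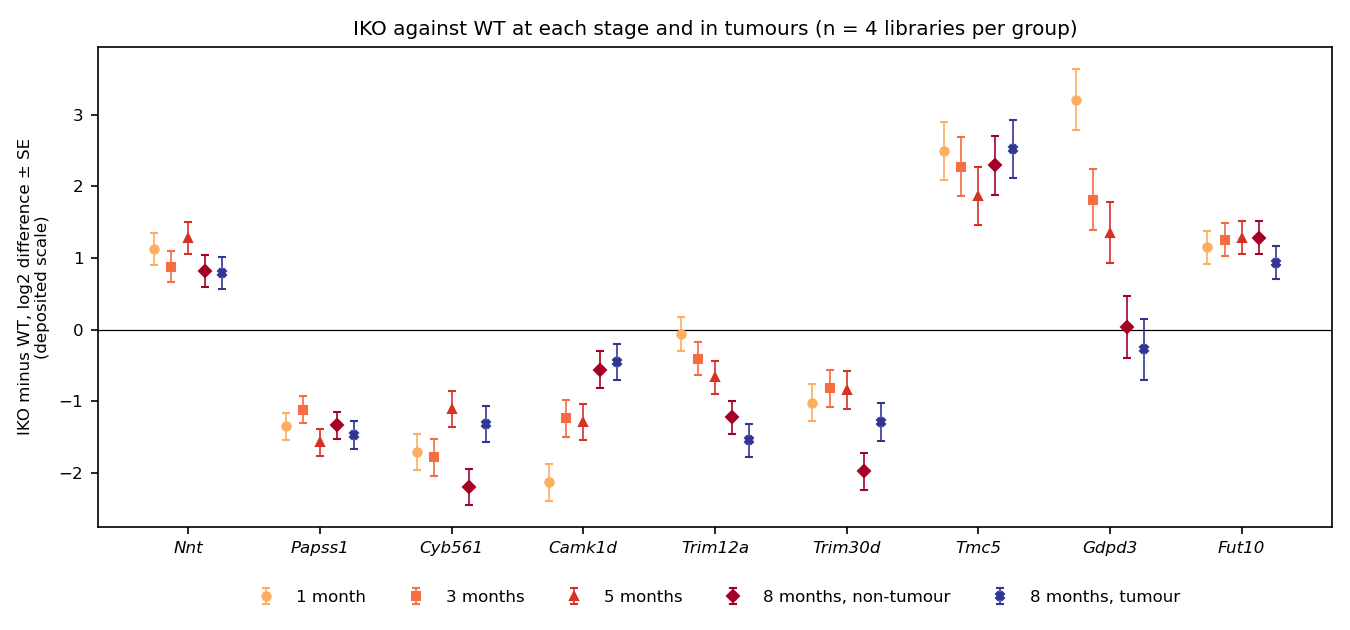
IKO minus WT difference on the deposited log2 scale with its standard error for each gene at 1, 3, 5 and 8 months of non-tumour liver and in 8-month tumours, n = 4 libraries per group. Fut10, Papss1, Nnt and Tmc5 stay close to 1 level over the stages, while Gdpd3 goes down to 0.04 and Trim12a to -1.23 at 8 months.

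Read library by library, Trim12a was either missing or present in IKO, and the missing libraries were not confined to 1 age. At 1 month the IKO libraries had 23.3, 28.4, 12.6 and 23.1 normalised Trim12a reads, against 23.8, 15.7, 26.9 and 27.4 in WT. At 3 months they had 0, 25.2, 16.8 and 7.71, against 20.3, 13.8, 11.49 and 22.2 in WT. At 5 months they had 3.91, 0, 14.9 and 0, against 15.1, 10.04, 18.8 and 2.99 in WT. All 4 IKO non-tumour libraries of 8 months were at 0, against 9.58, 7.31, 8.04 and 21.5 in WT, and so were all 4 IKO tumours, against 19.9, 18.0, 12.4 and 22.9 in WT tumours. In all, 11 of 20 IKO libraries held no Trim12a read, against 0 of the 85 libraries of the other genotypes, whose lowest held 2 reads. A count of 0 allows 3 reads, or 3.40 to 5.33 normalised reads in these 11 libraries, so 1 such library alone does not stand apart from the lowest WT library. Taken over each group of 4, with a floor of 3 counts over the group, Trim12a was at least 10.95-fold lower in IKO non-tumour liver of 8 months and at least 16.7-fold lower in IKO tumours than in WT. These floors cover counting error only.

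Gdpd3 and Trim30d divided the same libraries in the same way. The 4 IKO libraries of 1 month, all with Trim12a reads, had 116.5, 364.4, 220.7 and 247.9 normalised Gdpd3 reads, against 1.98, 6.86, 11.9 and 5.48 in WT. At 3 months the IKO library without Trim12a had 3.40 and the others 92.9, 163.7 and 78.6, against 3.45 to 6.75 in WT. At 5 months the IKO libraries without Trim12a had 6.52 and 7.78 and the others 238.3 and 208.3, against 5.48 to 18.6 in WT. At 8 months IKO non-tumour liver had 3.05, 7.11, 4.08 and 2.52, against 3.19, 4.87, 4.02 and 2.68 in WT. So Gdpd3 stood at 78.6 to 364.4 in each of the 9 IKO libraries with Trim12a reads and at 1.36 to 7.78 in each of the 11 without. The highest Gdpd3 level in the 85 libraries of the other genotypes was 20.7. Trim30d stood at 22.9 to 61.6 in the same 9 libraries and at 0 to 14.2 in the same 11, with a WT range of 24.4 to 143.7. Gdpd3 and the TRIM genes lie on chromosome 7 with Tmc5 between them, across the gaps given above, and Tmc5 did not divide in this way.

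**Figure D3:**
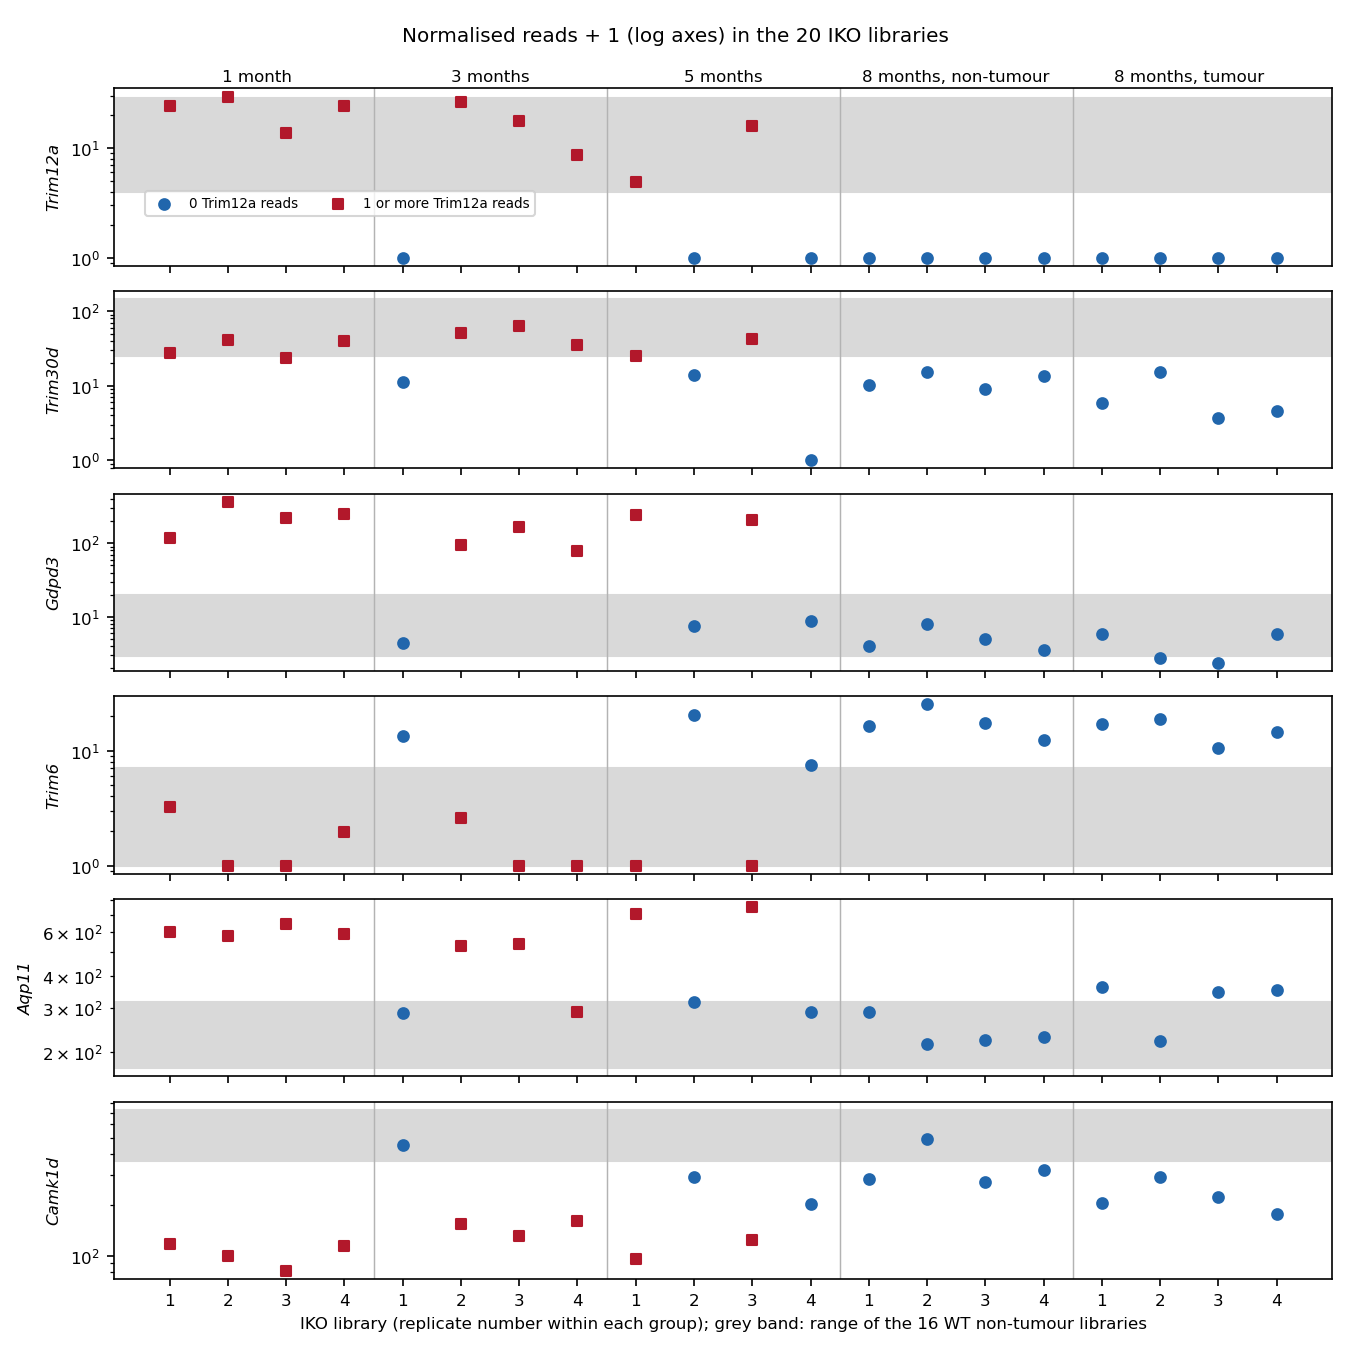
Normalised reads plus 1 on log axes in each of the 20 IKO libraries, by stage and replicate number, for Trim12a, Trim30d, Gdpd3, Trim6, Aqp11 and Camk1d, with squares for libraries holding Trim12a reads and circles for those at 0; the grey band is the range of the 16 WT non-tumour libraries of sequencing group 1. Gdpd3 is at 78.6 or above in all squares and at 7.78 or below in all circles.

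Camk1d, on chromosome 2, divided in the opposite direction. In the 9 IKO libraries with Trim12a reads it stood at 80.0 to 160.3 normalised reads, below the WT range of 364.4 to 728.9 throughout. In the 7 IKO non-tumour libraries without, it stood at 201.0 to 490.8, and in the 4 IKO tumours at 174.5 to 289.6. Stage and kind of library went together, since 1 month held only libraries with Trim12a reads and 8 months only libraries without, where Camk1d differed least. The other 5 genes had ranges that overlapped between the 2 kinds of IKO library. Tmc5 stood at 28.4 to 96.0 normalised reads with Trim12a reads and at 39.1 to 428.1 without, tumours included. Papss1 stood at 74.4 to 137.0 with and 88.2 to 132.2 without, and Fut10 at 23.1 to 47.3 with and 14.2 to 38.1 without. The Nnt ranges were 195.9 to 270.5 with and 125.2 to 293.6 without, and those of Cyb561 1.11 to 16.1 with and 4.08 to 140.3 without. This description of the libraries was chosen after their values were seen, so it carries no test. The labels give no strain, cross or litter to set beside it.

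In IKO tumours, 8 of the 9 genes had the direction seen in non-tumour liver, and Gdpd3 did not. The 4 IKO and 4 WT tumours did not overlap for 6 of the 9, where 7.27% of all genes did not; since tumours may have entered the choice, nothing is read from this. Tmc5 had 374.8, 428.1, 302.0 and 152.5 normalised reads in IKO tumours, against 200.9, 6.01, 16.1 and 18.1 in WT tumours, a difference of 2.52 ± 0.41. The groups overlapped only through WT tumour replicate 1. Papss1 had 97.7, 92.4, 121.1 and 90.3 in IKO tumours, against 251.6, 372.4, 389.4 and 300.4 in WT tumours (-1.47 ± 0.19), with no overlap. Fut10 had 20.8, 14.2, 24.5 and 25.6 in IKO tumours, against 7.67, 2.002, 3.72 and 2.41 in WT tumours (0.94 ± 0.23), also with no overlap. Cyb561 was lower in every IKO tumour (36.6 to 140.3) than in every WT tumour (162.8 to 319.0), by -1.32 ± 0.25, and Nnt differed by 0.79 ± 0.22. Trim30d differed by -1.29 ± 0.26 and Trim12a by -1.55 ± 0.23, and for Nnt, Trim30d and Trim12a the tumours did not overlap either. Camk1d differed by -0.46 ± 0.26 and Gdpd3 by -0.28 ± 0.43, with overlap. Over all genes 467, or 3.60%, passed the adjusted p of 0.05 in this contrast; none of the 9 is tested there.

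The same genes were then compared in SKO, BKO and MKO livers. SKO and IKO were set against the same WT libraries, and BKO and MKO against the other WT, so each pair of comparisons shares its WT. The WT values behind the SKO differences entered the choice of the 9 genes, which leans SKO towards the IKO direction, so the SKO p-values are no independent support for that direction. All libraries of the BKO and MKO comparisons lay outside the choice. In SKO non-tumour liver 4 of the 9 genes passed by limma with adjustment over all genes, where 22.9% of all genes did. Nnt rose. It had 82.0 to 330.4 normalised reads in the 16 SKO libraries, median 190.2, against 60.7 to 140.2, median 87.0, in WT, and 11 of 16 SKO libraries stood above the WT range. The difference was 0.77 ± 0.11 (adjusted p = 3.08e-07, n = 16 each, limma). By stage Nnt differed by 0.75, 0.74, 1.23 and 0.37 at 1, 3, 5 and 8 months. Papss1 fell, with 142.1 to 328.8 in SKO libraries, mean 226.77, against 232.3 to 390.1, mean 303.5, in WT. Its ranges overlapped in 8 of 16 SKO libraries, and the difference was -0.41 ± 0.10 (adjusted p = 0.00115, limma).

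Trim30d and Camk1d also fell in SKO liver. Trim30d had 22.5 to 92.5 normalised reads in SKO libraries, median 38.1, against 24.4 to 143.7, median 79.7, in WT, by -0.51 ± 0.13 (adjusted p = 0.00326, limma). That difference lay in the young livers, with -1.06 and -0.83 at 1 and 3 months against 0.10 and -0.23 at 5 and 8 months, a change that was not tested. Camk1d had 246.4 to 637.4 in SKO libraries, median 358.1, against 364.4 to 728.9, median 484.3, in WT, by -0.36 ± 0.13 (adjusted p = 0.0343, limma). Leaving out any 1 of 11 of the 32 libraries (SKO replicates 3 and 4 of 1 month, 4 of 3 months, 3 and 4 of 5 months and 4 of 8 months, and WT replicates 2 and 4 of 1 month and 3 of each later stage) took that p to between 0.0522 and 0.0698. Cyb561, Trim12a, Tmc5, Gdpd3 and Fut10 did not pass, with adjusted p between 0.191 and 0.902. No SKO library held Trim12a at 0, and Gdpd3 stayed between 0 and 17.8. Fut10 nevertheless had 4 SKO libraries above the WT range of 0 to 12.0, at 15.3, 14.8 and 17.9 at 3 months (replicates 1, 3 and 4) and 15.9 at 5 months (replicate 2). The other 12 SKO libraries lay between 0 and 11.3, inside that range.

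Cell type markers also differed in SKO non-tumour liver, where 22.9% of all genes passed. All 12 Kupffer cell and macrophage markers rose in SKO non-tumour liver, with a summed level of 2402 to 8157 normalised reads against 1929 to 7045 in WT. Of the 8 hepatocyte markers 4 fell, with sums of 250700 to 862100 against 307000 to 972200. B cell markers rose for 3 of 7 (669.2 to 13370 against 347.2 to 3067), stellate cell markers for 4 of 10 (1100 to 3192 against 1086 to 2661) and erythroid markers for 3 of 6 (4468 to 14980 against 2851 to 9340). Of 5 neutrophil markers 1 rose (35.7 to 804.6 against 31.5 to 1639), and of 8 T and NK cell markers 1 rose and 1 fell (49.6 to 176.1 against 59.0 to 186.1). None of 7 cholangiocyte and none of 8 sinusoidal markers passed by limma, of which 2 and 0 had an unadjusted p under 0.05. No marker had a median of 0 in SKO or WT. The part of these cells in the SKO differences was not tested. In bulk liver, fewer cells of a type and less RNA per cell cannot be told apart.

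In IKO non-tumour liver, of 12 Kupffer cell and macrophage markers 2 rose (sum 2824 to 7220 in IKO against 1929 to 7045 in WT), of 8 T and NK cell markers 2 rose (52.7 to 212.0 against 59.0 to 186.1), and of 7 B cell markers 1 fell (311.8 to 9664 against 347.2 to 3067). None of the hepatocyte, cholangiocyte, neutrophil, stellate, sinusoidal or erythroid markers passed by limma, of which 1, 0, 2, 2, 0 and 3 had an unadjusted p under 0.05. Their part in the IKO differences, and whether these counts differ from those in SKO, was not tested. Mpo, a neutrophil marker, had a median of 0 in IKO.

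In BKO non-tumour liver 6 of the 9 genes passed, where 19.6% of all genes did. Cyb561 rose, opposite to its direction in IKO, with 181.5 to 333.4 normalised reads in the 12 BKO libraries, median 217.9, against 65.7 to 202.7, median 118.0, in WT. In BKO 8 of 12 libraries stood above the WT range, and the difference was 0.85 ± 0.12 (adjusted p = 3.64e-06, n = 12 each, limma), with 0.92, 0.71, 1.05 and 0.73 at the 4 ages. Camk1d fell in BKO, with 110.7 to 323.1 normalised reads, median 228.8, against 268.6 to 466.8, median 383.9, in WT. All but 3 BKO libraries lay below the WT range (-0.70 ± 0.10, adjusted p = 1.48e-06), and the single-age difference was -1.28 at 1 month and -0.33 to -0.70 later. Trim30d fell, with 35.2 to 82.0 in BKO libraries, median 50.9, against 53.1 to 151.6, median 75.2, in WT (-0.53 ± 0.11, adjusted p = 0.000411). Fut10 rose slightly, with 2.07 to 9.34 against 0.655 to 3.995 in WT (0.23 ± 0.07, adjusted p = 0.00946), a level well below the 21.4 to 47.3 of IKO libraries.

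Nnt and Trim12a fell by the smallest margins in BKO. Nnt had 56.3 to 100.7 normalised reads in BKO libraries, median 71.0, against 75.6 to 152.9, median 84.7, in WT (-0.25 ± 0.09, adjusted p = 0.038, limma). Without any 1 of 11 of the 24 libraries (BKO replicate 2 of 1 month, 1 and 2 of 3 months, 2 of 5 months and 1 of 8 months, and WT replicate 1 of 1 month, 1 and 2 of 3 months, 1 and 3 of 5 months and 3 of 8 months) the adjusted p was 0.051 to 0.0961. Trim12a had 3.999 to 24.9 in BKO libraries, median 11.1, against 6.74 to 27.0, median 16.8, in WT (-0.28 ± 0.10, adjusted p = 0.0413). Its p passed 0.05, at 0.0519 to 0.102, on leaving out any 1 of 17 of the 24 libraries, that is all but BKO replicates 3 of 1 month, 2 of 3 months and 2 of 5 months and WT replicates 1 of 1 month, 3 of 3 months, 1 of 5 months and 3 of 8 months. Papss1, Tmc5 and Gdpd3 did not pass in BKO, with adjusted p between 0.173 and 0.547.

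Cell type markers differed in BKO as well, where 19.6% of all genes passed. Stellate cell markers rose for 9 of 10 (sum 2558 to 4866 in BKO against 1675 to 3323 in WT), cholangiocyte markers for 5 of 7 (252.2 to 863.2 against 126.6 to 215.9) and Kupffer cell and macrophage markers for 6 of 12 (4477 to 8340 against 2806 to 8373). Hepatocyte markers rose for 2 of 8 (686300 to 1296000 against 514400 to 1050000) and neutrophil markers for 1 of 5 (71.2 to 8387 against 50.5 to 2915), with Mpo at a median of 0 in both. None of the T and NK cell, B cell, sinusoidal or erythroid markers passed by limma, of which 1, 0, 1 and 0 had an unadjusted p under 0.05. Their part in the BKO differences was not tested.

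In MKO non-tumour liver 1 of the 9 genes passed, where 2.71% of all genes did. Trim30d fell, with 35.3 to 75.3 normalised reads in the 12 MKO libraries, median 57.6, against 53.1 to 151.6, median 75.2, in WT (-0.43 ± 0.11, adjusted p = 0.0188, limma). By age the difference was -1.0 at 1 month and -0.09, -0.18 and -0.47 later. Without MKO replicate 1 of 5 months the adjusted p was 0.0511. The other 8 genes had adjusted p between 0.2 and 0.954, which does not show that they were alike. In MKO 1 of 12 Kupffer cell and macrophage markers rose (2238 to 14280 against 2806 to 8373) and 1 of 8 hepatocyte markers fell (518000 to 807100 against 514400 to 1050000), a part that was not tested. No marker of the other lists passed by limma; at an unadjusted p under 0.05 stood 5 of 10 stellate cell and 1 of 8 T and NK cell markers and 0 of the rest. Mpo had a median of 0 in MKO and WT.

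Trim30d was lower than WT in the mean of all 4 knockouts, which share their WT in pairs: -1.17 in IKO (not tested), -0.51 in SKO, -0.53 in BKO and -0.43 in MKO. In SKO, BKO and MKO the difference was larger at 1 month, at -1.06 in SKO, -1.06 in BKO and -1.0 in MKO, than at any later age. WT livers of 1 month stood at 68.7 to 107.0 normalised Trim30d reads in sequencing group 1 and at 90.6 to 151.6 in sequencing group 2.

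**Figure D4:**
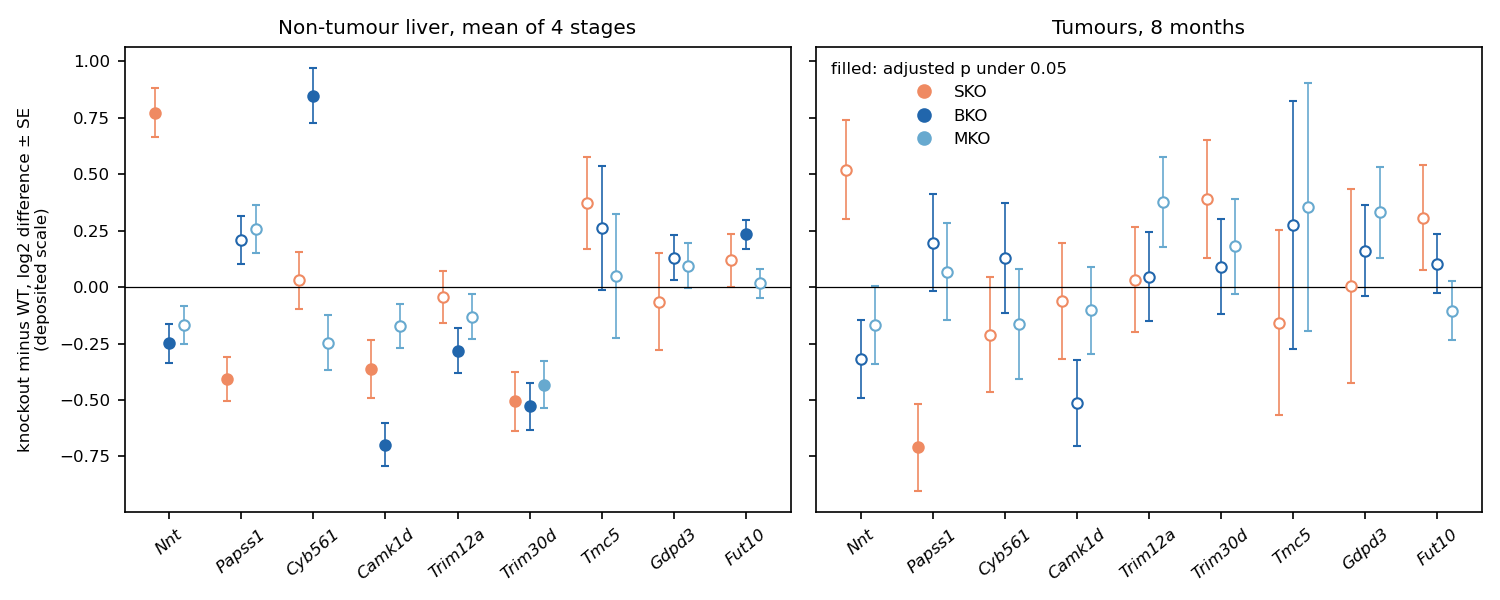
Knockout minus WT difference on the deposited log2 scale with its standard error for the 9 genes in SKO, BKO and MKO, left as the mean over the 4 non-tumour stages and right in 8-month tumours; filled points had an adjusted p under 0.05. Nnt is highest in SKO at 0.77, Cyb561 highest in BKO at 0.85, and Trim30d is below 0 in the non-tumour liver of all 3.

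In tumours of the same knockouts only 1 gene passed in 1 comparison. Papss1 had 223.6, 99.2, 212.1 and 253.9 normalised reads in SKO tumours, against 251.6, 372.4, 389.4 and 300.4 in WT tumours (-0.71 ± 0.19, adjusted p = 0.0376, limma), where 1.72% of all genes passed. The groups overlapped through SKO replicate 4. Leaving out SKO tumour replicate 2 or WT tumour replicate 2 or 3 gave adjusted p of 0.26, 0.144 and 0.151, and a fit of the SKO and WT tumours alone gave 0.392. In BKO and MKO tumours 0 of the 9 passed by limma, where 0.548% and 4.03% of all genes did. At an unadjusted p under 0.05, limma found 1 of the 9 in BKO tumours (Camk1d, -0.51 ± 0.19) and 0 in MKO tumours. Limma-voom on the recovered reads also called 0 in both, with 1 each unadjusted.

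Set against non-tumour liver of the same age, Cyb561 passed in tumours of more genotypes than any other of the 9. In IKO and in WT of sequencing group 1 the non-tumour libraries entered the choice of the genes, and a gene picked for low values there leans towards a higher tumour difference, and the reverse. The p-values of those 2 sets are therefore no independent support. Of the 4 sets outside the choice, with WT of sequencing group 2 as its own set, Cyb561 rose in tumours of 3, and it also passed in the 2 that entered it. In IKO it had 60.9, 140.3, 46.3 and 36.6 normalised reads in tumours, against 21.4, 5.69, 4.08 and 8.83 in non-tumour liver, with no overlap (1.55 ± 0.25, adjusted p = 3.62e-06, limma). Of these 4 tumours 1 lay within the range of WT non-tumour liver of 8 months, at 80.4 to 140.8, and 3 below it, and all 4 lay below the WT tumours. In SKO Cyb561 had 146.5 to 196.6 in tumours against 38.5 to 111.3 (1.09 ± 0.25, adjusted p = 0.000448). In WT of sequencing group 2 it had 277.8 to 411.2 in tumours against 112.9 to 202.7 (0.92 ± 0.24, adjusted p = 0.00442). WT of sequencing group 1 (0.67 ± 0.25, adjusted p = 0.0278) and MKO (0.76 ± 0.24, adjusted p = 0.0282) followed. In BKO, where Cyb561 was already high, it differed by 0.32 ± 0.24 (adjusted p = 0.418). Whether BKO differs from the others in this was not tested.

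**Figure D5:**
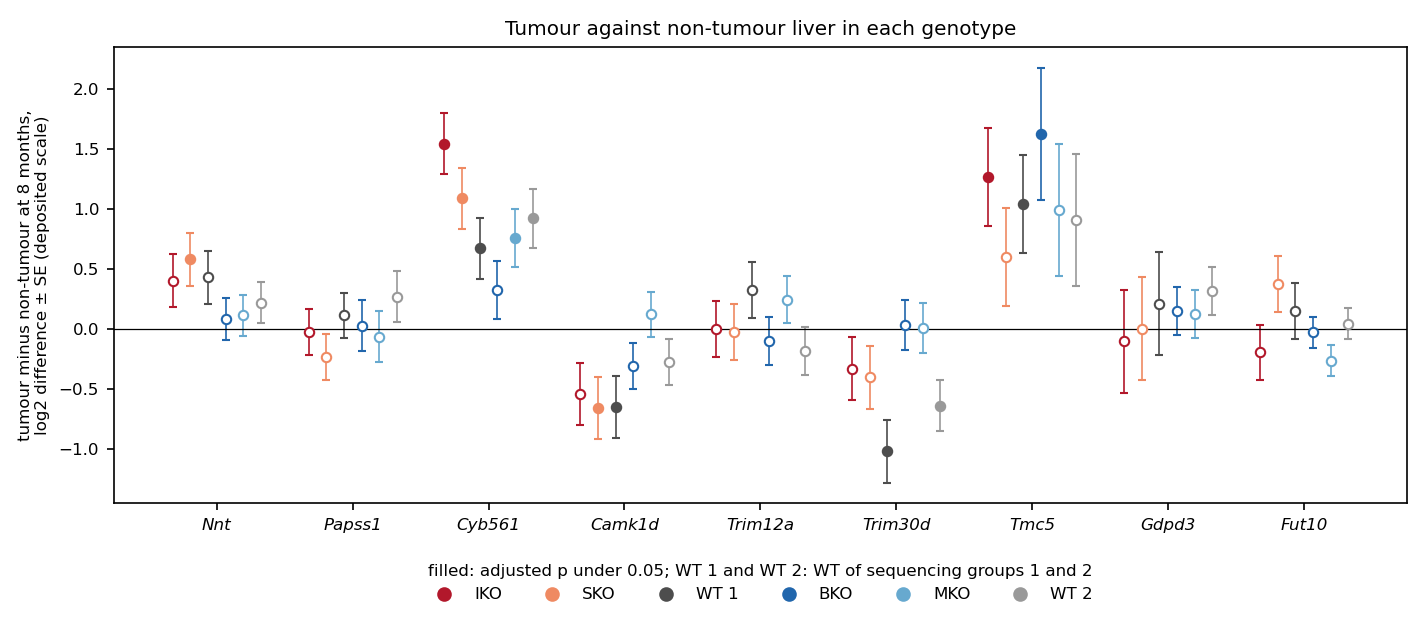
Tumour minus non-tumour liver at 8 months, log2 difference on the deposited scale with its standard error, for the 9 genes in each genotype, n = 4 libraries per group in IKO, SKO and WT 1 and 3 in BKO, MKO and WT 2; filled points had an adjusted p under 0.05. Cyb561 is above 0 in every genotype and filled in all but BKO, and Trim12a is at 0 in IKO because no library there held a read.

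Tmc5 rose in tumours of BKO, and it also passed in IKO and WT of sequencing group 1, whose non-tumour libraries entered the choice. IKO tumours had 152.5 to 428.1 normalised reads against 65.6 to 218.4 in non-tumour liver (1.27 ± 0.41, adjusted p = 0.0132, limma). BKO tumours had 284.2, 14.2 and 1.55 against 8.73, 0 and 0.762 (1.63 ± 0.55, adjusted p = 0.0404), and without BKO tumour replicate 1 the difference was 0.45. WT tumours of sequencing group 1 had 200.9, 6.01, 16.1 and 18.1 against 0, 13.4, 1.34 and 32.2 (1.04 ± 0.41, adjusted p = 0.0357), and without WT tumour replicate 1 the difference was 0.37. Leaving out further libraries ended these calls too: IKO non-tumour replicate 3 or 4 or tumour replicate 2 (adjusted p 0.0533 to 0.0571), BKO non-tumour replicate 2 or 3 (0.185 and 0.126) and WT non-tumour replicate 1 or 3 (0.187 and 0.117).

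Trim30d passed as lower in WT tumours of both sequencing groups. In sequencing group 1, where non-tumour levels entered the choice, it had 32.2 to 47.0 normalised reads in WT tumours against 79.1 to 143.7 in WT non-tumour liver, with no overlap (-1.02 ± 0.26, adjusted p = 0.00127, limma). In sequencing group 2 WT tumours had 34.0, 60.9 and 36.5 against 88.0, 95.9 and 59.0 (-0.64 ± 0.21, adjusted p = 0.0215), a call lost at 0.0755 to 0.106 on leaving out WT replicates 1 or 2 of non-tumour liver or 1 or 3 of tumour. Camk1d fell in tumours of WT of sequencing group 1 (-0.65 ± 0.26, adjusted p = 0.0356) and of SKO (-0.66 ± 0.26, adjusted p = 0.0345). Nnt rose in SKO tumours (0.58 ± 0.22, adjusted p = 0.0307). SKO tumour replicate 1 alone, at 369.0 normalised reads against 100.1 to 169.3 in the other SKO tumours, carried most of it, and without that library the difference was 0.23 (adjusted p = 0.393). Papss1, Trim12a, Gdpd3 and Fut10 passed in none of the 6 sets.

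In counts, 4 of the 9 genes passed between tumour and non-tumour liver in WT of sequencing group 1 and 2 in WT of sequencing group 2, where 42.1% and 27.1% of all genes did. In IKO 2 passed (33.3% of all genes), in SKO 3 (39.7%), in BKO 1 (14.7%) and in MKO 1 (17.3%). Each of these shares lay near that of all genes or below it. The Camk1d calls were lost without WT replicates 1, 3 or 4 of non-tumour liver or 3 or 4 of tumour (adjusted p 0.0523 to 0.163), and without SKO replicates 1, 2 or 3 of non-tumour liver or 2 or 4 of tumour (0.0574 to 0.131). The Cyb561 calls were lost in WT of sequencing group 1 without replicates 2 or 3 of non-tumour liver or 1 of tumour (0.0526 to 0.164), in WT of sequencing group 2 without replicate 3 of non-tumour liver (0.0535), and in MKO without replicate 3 of non-tumour liver or 1 or 2 of tumour (0.0857 to 0.207). The Nnt call was also lost without SKO replicates 2 or 3 of non-tumour liver or 4 of tumour (0.0571 to 0.0997).

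Cell type markers were compared between tumour and non-tumour liver in each genotype, to be read beside the shares of all genes given above. Summed cholangiocyte markers stood at 496.7 to 3705 normalised reads in IKO tumours against 160.3 to 429.5 in IKO non-tumour liver of 8 months, and 3 of 7 rose. Summed neutrophil markers stood at 1255 to 7814 against 202.0 to 335.7, with 1 of 5 higher and Mpo at a median of 0. That sum does not stand for the whole list, as the other markers did not pass as higher. Summed hepatocyte markers stood at 1231000 to 1562000 against 441100 to 816800, with 3 of 8 higher and 1 lower. Of the 8 hepatocyte markers 4 rose and 1 fell in SKO, and 3 rose and 2 fell in WT of sequencing group 1. In BKO 1 rose and 2 fell, in MKO 3 and 1, and in WT of sequencing group 2, 2 and 2. In WT of sequencing group 1 the cholangiocyte sums were 969.7 to 4051 in tumours against 144.9 to 525.5 in non-tumour liver (4 of 7 rose), and the neutrophil sums 2502 to 16540 against 103.2 to 1639 (1 of 5 rose, 3 fell). The cholangiocyte sums in tumours against non-tumour liver were 587.5 to 1216 against 169.5 to 636.2 in SKO (2 of 7 rose), 728.9 to 1663 against 551.0 to 863.2 in BKO (1 of 7), 558.6 to 3277 against 227.8 to 633.0 in MKO (3 of 7) and 657.6 to 677.1 against 151.0 to 197.1 in WT of sequencing group 2 (3 of 7). Of 5 neutrophil markers 1 rose in each of these 4, and of 10 stellate cell markers 6, 2, 5 and 4 rose and 3, 2, 0 and 2 fell in SKO, BKO, MKO and that WT, with 2 up and 2 down in IKO and 5 up and 2 down in WT of sequencing group 1. Of 12 Kupffer cell and macrophage markers 1 fell in IKO and in BKO, 4 in SKO and in MKO and 3 in WT of each sequencing group, while 1 rose in MKO and in WT of sequencing group 1. Of 6 erythroid markers 2 fell in WT of sequencing group 1 and 1 in each other set, and none rose by limma. Of 8 sinusoidal markers 3 rose in IKO and in WT of sequencing group 1, and 1 in SKO and in the other WT. In that list 1 fell in SKO and in each WT, and 2 in MKO. Of 8 T and NK cell markers 1 rose in SKO, and 1 fell in IKO and in each WT. Of 7 B cell markers 2 rose in BKO, and 1 fell in SKO and in WT of sequencing group 1. Their part in the differences of the 9 genes was not tested.

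Age moved none of the 9 genes past the threshold in WT. Between 8 months and 1 month 0 of 9 passed in WT of either sequencing group, where 7.00% and 1.72% of all genes did. Limma found 3 in each at an unadjusted p under 0.05 (Cyb561, Trim12a and Tmc5 in sequencing group 1, and Papss1, Cyb561 and Trim30d in sequencing group 2), and limma-voom called 0 with 2 and 3 unadjusted. Cyb561 had 132.0, 110.8, 80.4 and 140.8 normalised reads at 8 months in WT of sequencing group 1, against 44.6, 60.8, 60.7 and 98.6 at 1 month (0.64 ± 0.25, adjusted p = 0.113). Trim12a had 9.58, 7.31, 8.04 and 21.5 at 8 months, against 23.8, 15.7, 26.9 and 27.4 at 1 month (-0.51 ± 0.23, adjusted p = 0.19). WT thus kept Trim12a reads in every library at the age when all IKO libraries had none.

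Neighbouring genes gave a view of position, in the same contrast that the 9 were picked on. Within 1 Mb of the 9 genes (edge to edge) 28 of 149 measured neighbours passed in IKO against WT non-tumour liver, or 18.8%, beside 9.04% of all genes. Because the 9 were picked on that contrast, nothing is read from this share. Nnt had 4 of 7 neighbours called, all lower in IKO, among them Zfp131 (-0.60 ± 0.11, adjusted p = 0.000108, limma) and Hmgcs1, an enzyme of cholesterol synthesis (-0.82 ± 0.20, adjusted p = 0.00452). Fut10 had 2 of 5, Tti2 lower (-0.38 ± 0.08, adjusted p = 0.00104) and the small nucleolar RNA Snord13 higher (0.52 ± 0.14, adjusted p = 0.0111). Camk1d had 4 of 17, with Dhtkd1, a mitochondrial dehydrogenase subunit gene, at 550.4 normalised reads in IKO against 285.9 in WT (0.86 ± 0.12, adjusted p = 1.08e-06). Papss1 had 0 of 7 by limma, also 0 at an unadjusted p under 0.05, and Cyb561 had 2 of 27, Map3k3 (0.27) and Smarcd2 (0.24), both higher. Tmc5 had 3 of 16, with Smg1 (-0.47) and Rps15a (-0.40) lower and Gde1 (0.32) higher. Gdpd3 had 10 of 63, with Sephs2 (-0.69) and Srcap (-0.37) lower and Spns1 (0.29) higher.

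Around the TRIM genes, which share most of their neighbours, 3 of 6 (Trim12a) and 3 of 7 (Trim30d) passed. Trim30a shares transcript-end words with Trim30d, as given above, so its level and its likeness to Trim30d are less certain too. Trim30a, 4.8 kb from Trim30d, averaged 26.8 normalised reads in IKO against 47.03 in WT (-0.50 ± 0.09, adjusted p = 8.05e-05, limma), and Trim34a fell too (-0.36 ± 0.11, adjusted p = 0.0316). Trim6 went the other way (0.38 ± 0.12, adjusted p = 0.0429). It stood at 6.48 to 24.2 normalised reads in the 7 IKO non-tumour libraries without Trim12a reads and at 9.52 to 17.8 in the 4 IKO tumours, against 0 to 6.09 in WT. In the 9 IKO libraries with Trim12a reads it stood at 0 to 2.22. Trim12a, Trim30d and Trim6 thus divided the IKO libraries alike, Trim6 in the opposite direction.

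The genes most like each of the 9 were sought among genes outside the 9. Symbols starting with Gm and a digit, or ending in Rik, were left out. Pearson correlation was taken over the 60 libraries of sequencing group 1. These libraries span the IKO, SKO and WT groups, so the values mix differences between genotypes with differences within them. Within the 9, Trim12a and Trim30d correlated at 0.75 over the same libraries. The same pair correlated at 0.84 over the 20 IKO libraries and at 0.06 over the 20 WT libraries. Gdpd3 was most like Aqp11 (0.79), Arap1 (0.71) and Serpina11 (0.64), of which Aqp11, a water channel gene, and Arap1 lie 29.03 and 25.35 Mb away on chromosome 7. Trim30d was most like its neighbour Trim30a (0.77), Smg1 (0.64) and Kif13b (0.61), and Trim12a like Trim30a (0.64), Ube2m (0.63) and Ppp1r3e (0.56). Aqp11 stood at 288.3 to 751.2 normalised reads in the 9 IKO libraries with Trim12a reads, at 214.8 to 316.4 in the 7 IKO non-tumour libraries without, at 220.3 to 362.0 in IKO tumours and at 171.5 to 316.4 in WT non-tumour liver. Papss1 was most like Acp1 (0.76), Rnf170 (0.72) and Enpp3 (0.70), and Camk1d like Enpp3 (0.78), Clint1 (0.64) and Tead1 (0.64). Enpp3 thus stood near both genes, which were both lower in IKO. Among the genes most like Fut10 were Oxa1l (0.66) and Aqp11 (0.64), and Nnt was most like C2cd2l (0.70), Sec16a (0.66) and Alg1 (0.66). Cyb561 was most like Defb1 (0.74), Emb (0.73) and Zbtb45 (0.71), and Tmc5 like Gosr2 (0.70), Nek3 (0.70) and Rnf225 (0.69).

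Among the 9 themselves, over the 20 IKO libraries, Trim12a correlated with Gdpd3 at 0.92 and with Trim30d at 0.84, and Camk1d with Gdpd3 at -0.86 and with Trim12a at -0.79. Cyb561 and Tmc5, whose means were both higher in IKO tumours than in IKO non-tumour liver of 8 months, correlated at 0.83. Over the 16 IKO non-tumour libraries alone that correlation was 0.37. Papss1 stood apart from the rest, with 0.07 against Camk1d and -0.05 against Trim12a.

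Lists of genes from the pathways around the 9 were counted in IKO, where 3.87% of all genes were called higher and 5.17% lower. These counts include the 9, which were picked on this contrast, so nothing is read from their size. The TRIM genes of the cluster had 2 of 9 higher and 4 lower, of which 2, Trim12a and Trim30d, were picked; beside the neighbours named above, Trim3 rose (0.23 ± 0.06, adjusted p = 0.0158, limma). PAPS synthesis and sulfation had 1 of 20 higher and 3 lower, Papss1 among them. Papss2, the other PAPS synthase, fell to 718.4 normalised reads in IKO against 924.3 in WT (-0.35 ± 0.09, adjusted p = 0.0107). The sulfotransferase Sult1d1 fell (-0.51 ± 0.14, adjusted p = 0.0165), and the PAPS transporter Slc35b2 rose (0.38 ± 0.09, adjusted p = 0.00562). Mitochondrial NADPH and peroxide defence had 2 of 16 higher, Nnt and the thioredoxin reductase Txnrd2 (0.21 ± 0.06, adjusted p = 0.0226), and 0 lower. Calmodulin-dependent kinases and calmodulins had 2 of 13 lower, Camk1d among them. Fucosylation had 2 of 15 higher, Fut10 and Gfus, which makes GDP-fucose (0.26 ± 0.07, adjusted p = 0.00714). The b561 and ascorbate list had 2 of 8 lower, Cyb561 and Frrs1 (-0.31 ± 0.10, adjusted p = 0.039), the TMC family 1 of 9 higher, Tmc5 itself, and the glycerophosphodiesterase list 2 of 9 higher, Gdpd3 and Gde1. List medians lay between -0.11 and 0.10 log2, beside 0.002 for all genes.

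In the other knockouts Papss2 fell in each, to 547.5 normalised reads in SKO against 924.3 in WT (-0.74 ± 0.09, adjusted p = 1.86e-08, limma), and to 1031 in BKO (-0.37 ± 0.09, adjusted p = 0.00262) and 1110 in MKO (-0.32 ± 0.09, adjusted p = 0.0413) against 1347 in their WT. In SKO liver, PAPS synthesis and sulfation had 2 of 20 higher and 8 lower (list median -0.14), and mitochondrial NADPH and peroxide defence 8 of 16 higher and 1 lower (0.14, beside 0.01 for all genes), with 12.0% and 10.9% of all genes called higher and lower. Idh2, another maker of mitochondrial NADPH, averaged 763.0 normalised reads in SKO against 457.5 in WT (0.70 ± 0.09, adjusted p = 6.57e-08, limma). The SKO counts, higher then lower, were 0 and 1 for TRIM genes, 1 and 3 for calmodulin kinases, 2 and 0 for the TMC family, 2 and 1 for glycerophosphodiesterases, 0 and 1 for fucosylation, and 0 and 1 for b561 and ascorbate. In BKO liver the ascorbate genes Gulo (441.0 normalised reads in BKO against 2104 in WT, -2.82 ± 0.24, adjusted p = 4.49e-11) and Rgn (251.3 against 1657, -3.07 ± 0.27, adjusted p = 1.34e-10) fell, while Cyb561 rose, and the list had 1 of 8 higher and 3 lower. The remaining BKO counts, higher then lower, were 1 and 2 for TRIM genes, 2 and 3 for PAPS, 0 and 2 for NADPH, 3 and 2 for calmodulin kinases, 1 and 1 for the TMC family, 1 and 1 for glycerophosphodiesterases, and 2 and 1 for fucosylation, beside 10.6% and 9.04% of all genes. In MKO liver they were 0 and 1 for TRIM genes, 0 and 2 for PAPS, 1 and 1 for fucosylation, and 0 for every other list by limma, beside 1.58% and 1.13% of all genes. At an unadjusted p under 0.05 those other lists had 0 (NADPH), 5 (calmodulin kinases), 3 (TMC family), 1 (glycerophosphodiesterases) and 1 (b561 and ascorbate). Idh2, Gulo and Rgn were chosen after their values were seen.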

How the data were processed

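Liver RNA libraries were made by MAPS and sequenced on a HiSeq2000, per the labels' protocols. The deposited values are log2 values that the authors had normalised across libraries and variance-stabilised; per the submitters' processing notes STAR 2.7.10a, HTSeq 2.0.2 and DESeq2 1.32.0 were used with GRCm38. All 105 libraries and 12966 genes were used, and 0 columns were left out. Undoing the transform gave reads: 100.0% of values came out within 0.05 of a whole read, and the lowest deposited value, 3.8289, stood for 0 reads. Reads divided by the size factor of each library, recovered from the deposited values, are called normalised reads. No molecular identifiers are stated, so floors cover counting error only.

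Differences and p-values came from limma 3.58.1 (R 4.3.3), fitted to the deposited log2 values of each sequencing group separately, with 1 mean per genotype and stage, a variance trend and Benjamini-Hochberg adjustment over all 12966 genes at 0.05. Non-tumour differences are the mean over 4 stages. The fit was tested on simulated data. Tables and figures used Python 3.11.15, pandas 2.3.3, numpy 2.4.6 and matplotlib 3.10.9. Positions of 12856 genes came from GENCODE M21, and 4 symbols appear on 8 rows.

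The members and gene lists were chosen with earlier results of these data known. Named beside the 9 are, per gene, up to 3 called neighbours within 1 Mb, the 3 most correlated of the genes searched, and up to 4 called genes per list in IKO. A gene that this rule picks for likeness and another that it picks from a list are not reported here. Alternatives were a stricter filter, quantile normalisation, limma-voom on recovered reads, a fit of the compared groups alone, no trend, a replicate block, a window of 5 Mb, reads scaled to the library total, and leaving out each library. Same-numbered libraries deviated together in 2 of 28 pairs of groups checked (all correlations over 0.1), MKO with WT non-tumour liver of 8 months and BKO tumour with non-tumour liver of 8 months; the labels do not say what a number shares.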

Additional observations from a re-analysis of the deposited data

Results flagged for a closer look

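Within groups of 4 libraries, 9 of 132 gene and group combinations had 1 library far from the other 3, where chance gives about 1 in 20. The only one in IKO was Camk1d in replicate 1 at 3 months, at 451.0 normalised reads; the same library was the 1 of that stage with no Trim12a read. In SKO of 3 months, Nnt stood low in replicate 3 (101.0), Papss1 high in replicate 4 (328.8), Tmc5 high in replicate 3 (4.925) and Fut10 at 0 in replicate 2. Cyb561 stood low in SKO replicate 3 of 1 month (67.58). In WT of sequencing group 1, Cyb561 stood high in tumour replicate 1 (319.0), Tmc5 in replicate 2 of 1 month (0.9801, a single read) and Fut10 in replicate 3 of 3 months (5.747).

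In 3 cases every library of 1 group lay above WT and every library of another below it, a difference that was not tested. Each of these groups has only 3 libraries. The share of all genes with such a case is not given, so nothing is read from the count. Cyb561 at 3 months averaged 205.7 normalised reads in BKO, above WT, while MKO lay below WT. Trim12a in MKO averaged 16.2 in tumours, above WT tumours, and lay below WT at 5 months. Fut10 at 1 month averaged 6.276 in BKO, above WT, while MKO lay below WT. That case rests on few reads, with 2 to 4 in the MKO libraries and 5 in each WT library.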

How the results depend on the processing

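No call among the 9 genes changed its direction under any alternative run. With the replicate block every count of called members stayed within 1.5 times its value, for instance 4 in SKO and 6 in BKO non-tumour liver, and no member's call changed. With a stricter filter (mean deposited value of at least 6, leaving 7516 and 7537 genes and 5 members in each sequencing group) 1 member was called between IKO tumour and non-tumour liver and 0 in BKO. Fitting the compared groups alone called 0 in SKO against WT tumours, 1, 0 and 0 between tumour and non-tumour liver in WT of sequencing group 2, BKO and MKO, and 35 instead of 467 genes in IKO against WT tumours. It also called 33 instead of 223 genes in SKO, 1 instead of 71 in BKO and 0 instead of 523 in MKO against WT tumours, 572 instead of 351 in MKO non-tumour liver, 1741 instead of 3510, 12 instead of 1907 and 82 instead of 2245 between tumour and non-tumour liver of WT of sequencing group 2, BKO and MKO, and 511 instead of 908 and 82 instead of 223 with WT age. The stricter filter called 1669 instead of 2540 genes in BKO non-tumour liver and, against WT tumours, 28 instead of 71 in BKO and 273 instead of 523 in MKO. Limma-voom called 0 members between BKO tumour and non-tumour liver. The cause was not tested. Tmc5 between WT tumour and non-tumour liver of sequencing group 1 had adjusted p of 0.0767 by limma-voom, 0.0556 with quantile normalisation and 0.225 with these groups alone. Trim30d between SKO tumour and non-tumour liver passed with these groups alone (0.0409), where Nnt was lost (0.163), and so were Cyb561 in MKO (0.153), Tmc5 in BKO (0.33) and Trim30d in WT of sequencing group 2 (0.0848). Fut10 in BKO was lost with quantile normalisation (0.0625). Leaving out 1 library, members called ranged over 3 to 4 in SKO, 4 to 6 in BKO and 0 to 1 in MKO non-tumour liver and 0 to 1 in SKO tumours against WT. Between tumour and non-tumour liver they ranged over 1 to 2 in IKO, 1 to 3 in SKO, 1 to 4 and 1 to 2 in WT of sequencing groups 1 and 2, and 0 to 1 in BKO and in MKO. Genes called ranged over 781 (without WT replicate 1 of 3 months) to 1397 in IKO non-tumour liver and 191 to 580 in IKO tumours, with 191 without WT replicate 3, 232 without IKO replicate 4, 252 without IKO replicate 1 and 261 without WT replicate 2. Against WT tumours they went to 108, 130 and 357 in SKO (without WT replicates 2, 3 and 4), to 15 in BKO (without BKO replicate 2, highest 93) and to 117, 244, 786 and 346 in MKO (without MKO replicates 1, 2 and 3 and WT replicate 3). In MKO non-tumour liver they were 231, 194 and 227 without MKO replicate 3 of 3 months, 1 of 5 months and 2 of 8 months and 180 without WT replicate 1 of 8 months, and otherwise reached 431. Between tumour and non-tumour liver they were 780, 926 and 972 in BKO without non-tumour replicates 2 and 3 and tumour replicate 1, and 1401, 1239, 1034 and 1376 in MKO without non-tumour replicates 1 and 3 and tumour replicates 1 and 2, with highest values of 2517 and 2809. With WT age they were 485 and 579 without replicates 1 and 2 of 8 months and 511 and 503 without replicates 3 and 4 of 1 month in sequencing group 1, and 37 to 146 without any 1 of the 6 libraries in sequencing group 2. With a window of 5 Mb, 15.2% of neighbours passed, and with reads scaled to the library total 3 genes again had no overlap. Low reads limit Trim12a, Tmc5, Gdpd3 and Fut10, whose WT medians were 15.4, 0, 5.18 and 3.99 normalised reads.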

Other observations

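Besides Papss1, Cyb561 and Fut10, the genes with no overlap between the 16 IKO and the 16 WT non-tumour libraries were Rnf170, Enpp3, Gosr2, 6820431F20Rik and E030030I06Rik. Rnf170 (26119368 to 26151790) and 6820431F20Rik (20262613 to 20297432) lie on chromosome 8 (GRCm38), as Fut10 and Ikbkb do, on either side of Ikbkb. Enpp3 (24772406 to 24842823) and E030030I06Rik (22113050 to 22149270) lie on chromosome 10, and Gosr2 (103676849 to 103697898) lies on chromosome 11, as does Cyb561. IKO minus WT differences were -1.20 for Rnf170, -1.48 for 6820431F20Rik, -0.85 for Enpp3, -1.61 for E030030I06Rik and 0.60 for Gosr2. They were named after their values were seen.

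Over the 20 IKO libraries alone, a description added after the data were seen, Trim6 was the gene most opposed to Gdpd3 (Pearson's r = -0.93) and to Trim12a (-0.85) and the one most like Camk1d (0.87). Aqp11 was most like Gdpd3 (0.88) and most opposed to Camk1d (-0.88). Tmc5 was most like C1qtnf1 (0.93) and most opposed to Lipc, hepatic lipase (-0.93). Cyb561 was most like Gas2l1 (0.93) and Lif (0.91). The 20 libraries share 4 tumours, in which the means of Tmc5 and Cyb561 were both higher than in IKO non-tumour liver of 8 months. In replicate 4 of IKO at 3 months, which held Trim12a reads, Aqp11 stood at 288.3 normalised reads, inside the WT range of 171.5 to 316.4, while the other 8 such libraries stood at 527.6 or above.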
